A study of Drosophila melanogaster with 11 samples.

Results

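The mitochondrial ribosomal proteins are the nuclear-encoded protein subunits of the ribosome inside mitochondria. Every gene of the count table whose identifier begins with mRpL or mRpS followed by a digit was taken, which gave 73 of 16727 genes, 47 named for the large subunit and 26 for the small subunit. The choice used names only and no measured value, but it was made with earlier results of these data known. The authors sequenced polyadenylated RNA of Drosophila melanogaster antennae, from the third segment, which bears most of the fly's odour-sensing hairs. Wild-type flies (WT) were of the strain w1118, which carries a mutated white gene, and knockout flies (KO) had the genotype w1118;;mir-284 KO, in which mir-284, a microRNA gene, was removed; this line had been crossed back to w1118 for 7 rounds. Both genotypes therefore share the w1118 background, and both were sampled at 3 d and at 25 d after eclosion, to ask which transcripts depend on mir-284 in young and in ageing antennae. There were 3 libraries each of WT 3 d, WT 25 d and KO 3 d, and 2 of KO 25 d. The design text calls the replicates biological, and the sex of the flies and the number pooled per library are not given in the sources used here.

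The mitochondrial ribosome translates the few messenger RNAs of the mitochondrial genome, which encode core subunits of the respiratory chain and of ATP synthase. All of its proteins are made from nuclear genes in the cytosol and imported, so the nucleus has to supply them alongside the nuclear-encoded respiratory subunits. Some of the proteins descend from bacterial ribosomal proteins, and others were added after the endosymbiont became an organelle. In the antenna, olfactory neurons depend on oxidative phosphorylation for ion pumping and for the long ciliated dendrites that carry odour receptors.

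Classes were set by the number in the symbol, with a list drawn from the mammalian and bacterial ribosomes. By this list, 43 of the 73 proteins were classed with a bacterial counterpart, 29 in the large and 14 in the small subunit. The other 30 were classed without one. mRpL55, mRpS18A and mRpS18B were counted among the 30 and mRpS18C among the 43. In dm6 coordinates the genes lay scattered, with 12 on 2L, 12 on 2R, 17 on 3L, 21 on 3R and 11 on X, and none on 4 or Y. The only one within 1 Mb of mir-284 (3R, 12551515 to 12551614) was mRpS21 (3R, 13381276 to 13381809). The gene models were short, with a median exon length of 783 bases (327 to 2078) against 1513 bases over all genes in the table. They were also crowded: the exons of 41 of the 73 genes (56.2%) overlapped exons of a gene on the other strand, against 24.9% of all genes. Of the 72 genes that passed the count filter, 51 (70.8%) had a start site within 500 bases of the start of a gene transcribed in the opposite direction, against 28.1% of all genes that passed. One such neighbour of mRpL55 is ATPsyn-d, a subunit of ATP synthase, with 95 bases between the start sites. The authors counted reads with strand ignored, so reads of overlapping genes cannot be told apart. The part shared with genes of either strand was 55.3% of the exon length of mRpS24, 48.0% of mRpS21, 35.8% of mRpS14, 35.2% of mRpL13 and 25.1% of mRpS9. For mRpL13 the overlapping gene, CG10602, lies on the same strand. mRpS14 overlaps Nat1 on the other strand and CG32533 on the same strand.

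The gene that did not pass was mRpL53, a large subunit protein with no bacterial counterpart. mRpL53 (2R, 13954195 to 13955664) had 0 counts in each of the 11 libraries, which allows at most 0.0677 to 0.110 CPM (read counts scaled to library size by TMM) per library for counting error. The whole of its exon length (100%) was shared with AGO1 on the other strand and CG33155 on the same strand, so its 0 counts do not show that the transcript was absent. Across the other 72 genes, counts per gene and library ran from 99 to 6620.

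Libraries held 24619699 to 55485825 counts in genes, and 1 of the 11, KO 25 d replicate 1, was unlike the rest. It had counts in 10447 genes against 11801 to 13682, its TMM factor was 0.702 against 0.978 to 1.11, and genes of up to 1 kb took 27.1% of its counts against 12.1% to 17.6%. The 7 listed olfactory markers (Orco, Ir25a, Ir8a, lush, Obp28a, Obp83a and Obp19d), all detected, summed to 183281 CPM in it and to 26337 to 58373 CPM in the others, so the labelled tissue was present throughout. Glia markers (repo, moody, Gs2, nrv2 and alrm) went the other way, at 1882 CPM in that library against 2382 to 3704 CPM. Neuron markers (elav, nSyb, Syt1 and brp) were at 1353 CPM, within the 1151 to 2021 CPM of the others. Its muscle, hemocyte, fat body and female, photoreceptor and Johnston's organ markers also lay within the range of the others. mir-284 itself had 0 counts in all 11 libraries, WT included, and this check says nothing of the genotype because poly(A) selection does not retain mature microRNAs. Columns of KO 25 d were matched to the 2 labelled samples by replicate number only, among 3 columns of that group in the table. All values of KO 25 d below rest on that match, and the medians and named members of comparisons with that group are given with and without replicate 1.

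Mitochondrial ribosomal protein transcripts were of moderate and similar abundance. Their level per length, in CPM per kb of exon averaged over the 4 group means, had a median of 26.4, and its quartiles over the 72 genes were 19.4 and 32.7. The median over all 11867 genes that passed the filter was 9.32 CPM per kb. With KO 25 d replicate 1 left out of the means, an alternative added after the values were seen, these medians were 22.8 and 9.20. Large subunit genes (median 27.5 CPM per kb, n = 46) and small subunit genes (25.1, n = 26) had like medians, as did genes with a bacterial counterpart (26.7, n = 43) and without one (25.2, n = 29). Putting mRpS18A and mRpS30 in the large subunit, where their mammalian counterparts are found, gave 27.1 and 25.7. Proteins of the cytosolic ribosome, which is far more abundant in cells, had a median of 856 CPM per kb (n = 86), and nuclear-encoded oxidative phosphorylation subunits 206 (n = 79). Lower medians were found for the mitochondrial translation factors (8.94, n = 9) and the mitochondrial aminoacyl-tRNA synthetases (7.38, n = 16). The synthetases other than Slimp, which was put in this list by name, are enzymes that charge the organelle's tRNAs.

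**Figure D1:**
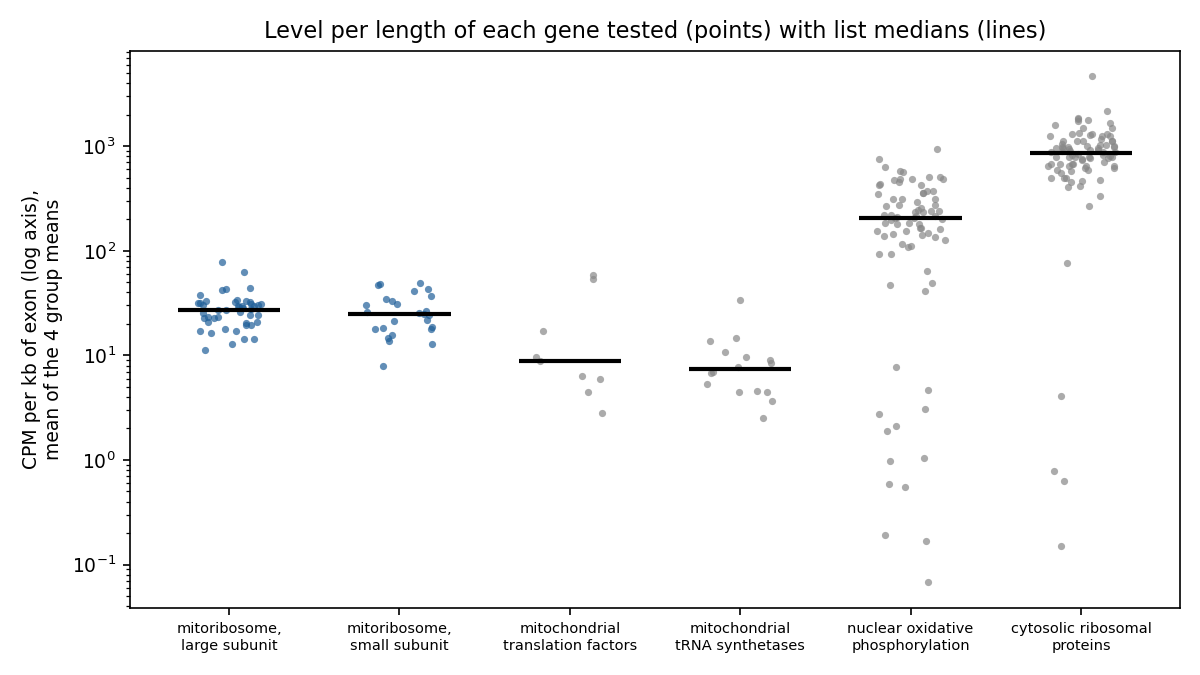
Level of each tested gene per length (CPM per kb of exon, log axis, mean of the 4 group means) for mitochondrial ribosomal proteins by subunit and for 4 related gene lists; each point is a gene and each line a list median. The members sit in a narrow band, with medians of 27.5 and 25.1 CPM per kb, under the oxidative phosphorylation (206) and cytosolic ribosomal (856) lists.

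From the lowest to the highest gene the level per length differed 9.89-fold. The highest were mRpL30 (78.0 CPM per kb), a large subunit protein with a bacterial counterpart, mRpL28 (62.3) and mRpS33 (49.4), which has no bacterial counterpart. The order at the top rested on KO 25 d replicate 1. Without that library mRpL28 (54.3) and mRpL30 (53.6) were close, mRpL24 (40.4) came next, and mRpS33 (35.8) was the eighth. The lowest were mRpS24 (7.88), the mitochondrial homologue of bacterial S3, mRpL21 (11.3) and mRpS18B (12.9). Without the library they were at 8.01, 9.40 and 12.9, with mRpS6 at 12.6. mRpS24 is also the tested gene with the largest share of its exons under another gene, so part of its reads may not have been counted. Of the 10 highest genes per length, 4 were also among the 10 highest by CPM. Over the 10 libraries other than KO 25 d replicate 1, the SD of log2 CPM of a member had a median of 0.22, against 0.32 over all genes, and 66 of 72 members lay under the all-gene median. The 3 above 0.4 were mRpS14 (0.48), mRpS16 (0.45) and mRpL4 (0.41). The SD was not compared at like level, and 98.6% of the members lay above the all-gene median level per length.

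The summed level of the transcripts lay between 1322 and 1842 CPM in 10 of the 11 libraries. It was 1600.2, 1542 and 1512 CPM in WT 3 d, 1486, 1507 and 1450.4 CPM in WT 25 d, and 1538, 1479 and 1842 CPM in KO 3 d. In KO 25 d it was 3035 CPM in replicate 1 and 1322 CPM in replicate 2, the highest and the lowest of all 11 libraries. The group means were 1551 ± 45.0 (SD, n = 3), 1481 ± 28.6 (n = 3), 1619.8 ± 195 (n = 3) and 2178 ± 1211 CPM (n = 2), so the KO 25 d mean lies between a pair of libraries that differ more than any groups do. As a share of raw counts the members took 0.213% of KO 25 d replicate 1, 0.143% of replicate 2 and 0.148% to 0.180% of the other 9. With CPM from total counts alone, the sum in replicate 1 was 2131 against 1427 to 1801 CPM elsewhere. In bulk tissue, fewer cells of a type and less RNA per cell cannot be told apart.

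**Figure D2:**
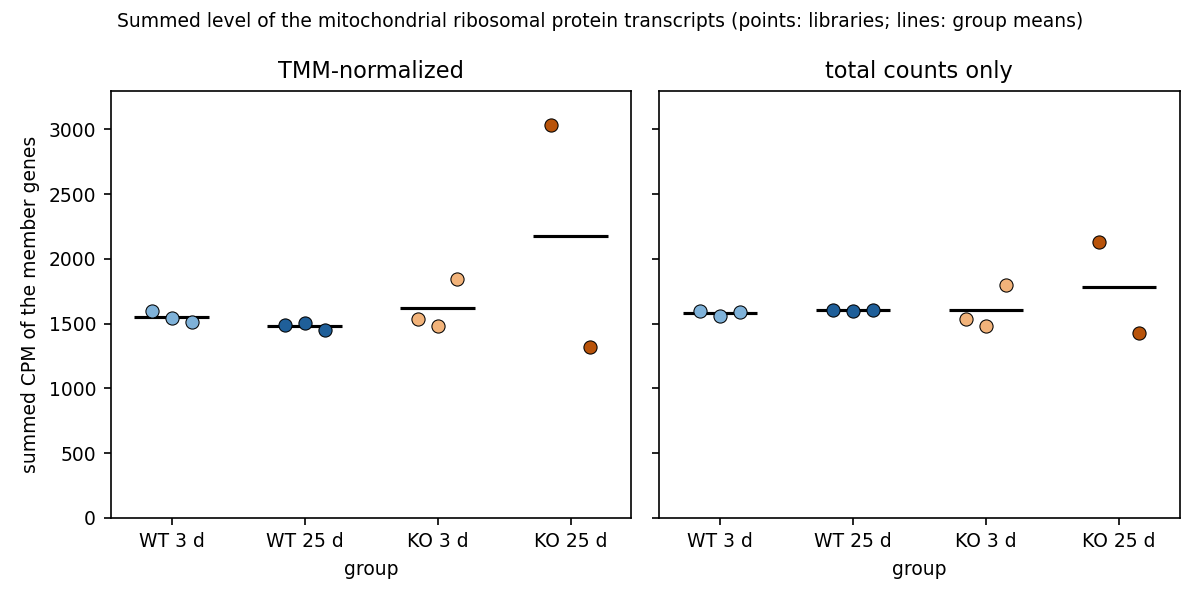
Summed CPM of the member genes in each library by group, scaled by TMM (left) and by total counts alone (right); points are libraries and lines group means. The 9 libraries of WT and KO 3 d lie between 1450.4 and 1842 CPM on the left, while KO 25 d replicate 1 lies at 3035 and replicate 2 at 1322.

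In KO 25 d replicate 1, 57 of the 72 genes (79.2%) were above all other libraries, against 27.2% of all genes tested. Measured as log2 CPM minus the mean of the other 10 libraries, the members had a median of 0.99 in that library against -0.18 over all genes, and 35 members were above 1. Cytosolic ribosomal proteins had a median of 1.38, oxidative phosphorylation subunits 0.62, translation factors 0.47 and mitochondrial aminoacyl-tRNA synthetases -0.24. The large subunit genes had a median of 1.05 and the small 0.89, and the ratio of the summed levels of large to small subunit was 1.99 there against 1.52 to 1.76 elsewhere. The order of the members also differed: the median Spearman correlation over the 72 genes with the other libraries was 0.618, against 0.875 to 0.947 for the rest, as a description over genes of shared libraries.

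Not every member was high in KO 25 d replicate 1. In that library, 11 members lay below the mean of the other libraries, by -1.05 to -0.01: mRpS16, mRpS5, mRpL3, mRpS11, mRpS9, mRpS24, mRpL44, mRpS18B, mRpL45, mRpL50 and mRpS18A, of which 7 are named for the small subunit. Length moved with the deviation in that library. Members above 500 and up to 750 bases had a median of 1.10 (n = 27) and those above 1000 and up to 2000 bases 0.77 (n = 21), and over all genes the same classes had medians of 0.58 (n = 909) and 0.15 (n = 3850). Up to 500 bases the medians were 1.31 for members (n = 6) and 0.40 for all genes (n = 530). Above 750 and up to 1000 bases they were 0.89 (n = 17) and 0.41 (n = 1026). Over 2000 bases the 1 member was at 0.04, and all genes had a median of -0.41 (n = 5552). The all-gene medians thus did not fall steadily with length. In each class the members' median lay above that of all genes of like length, which were not matched for level. The part of transcript length in the result was not tested. The 51 neighbours that start head to head within 500 bases of a member had a median of -0.23 in that library, against 0.90 for the members in those pairs. Replicate 2 showed the other direction on a smaller scale: the members' median was -0.22 against 0.00 over all genes, and 23 of 72 lay below all 9 WT and KO 3 d libraries, against 9.47% of all genes.

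**Figure D3:**
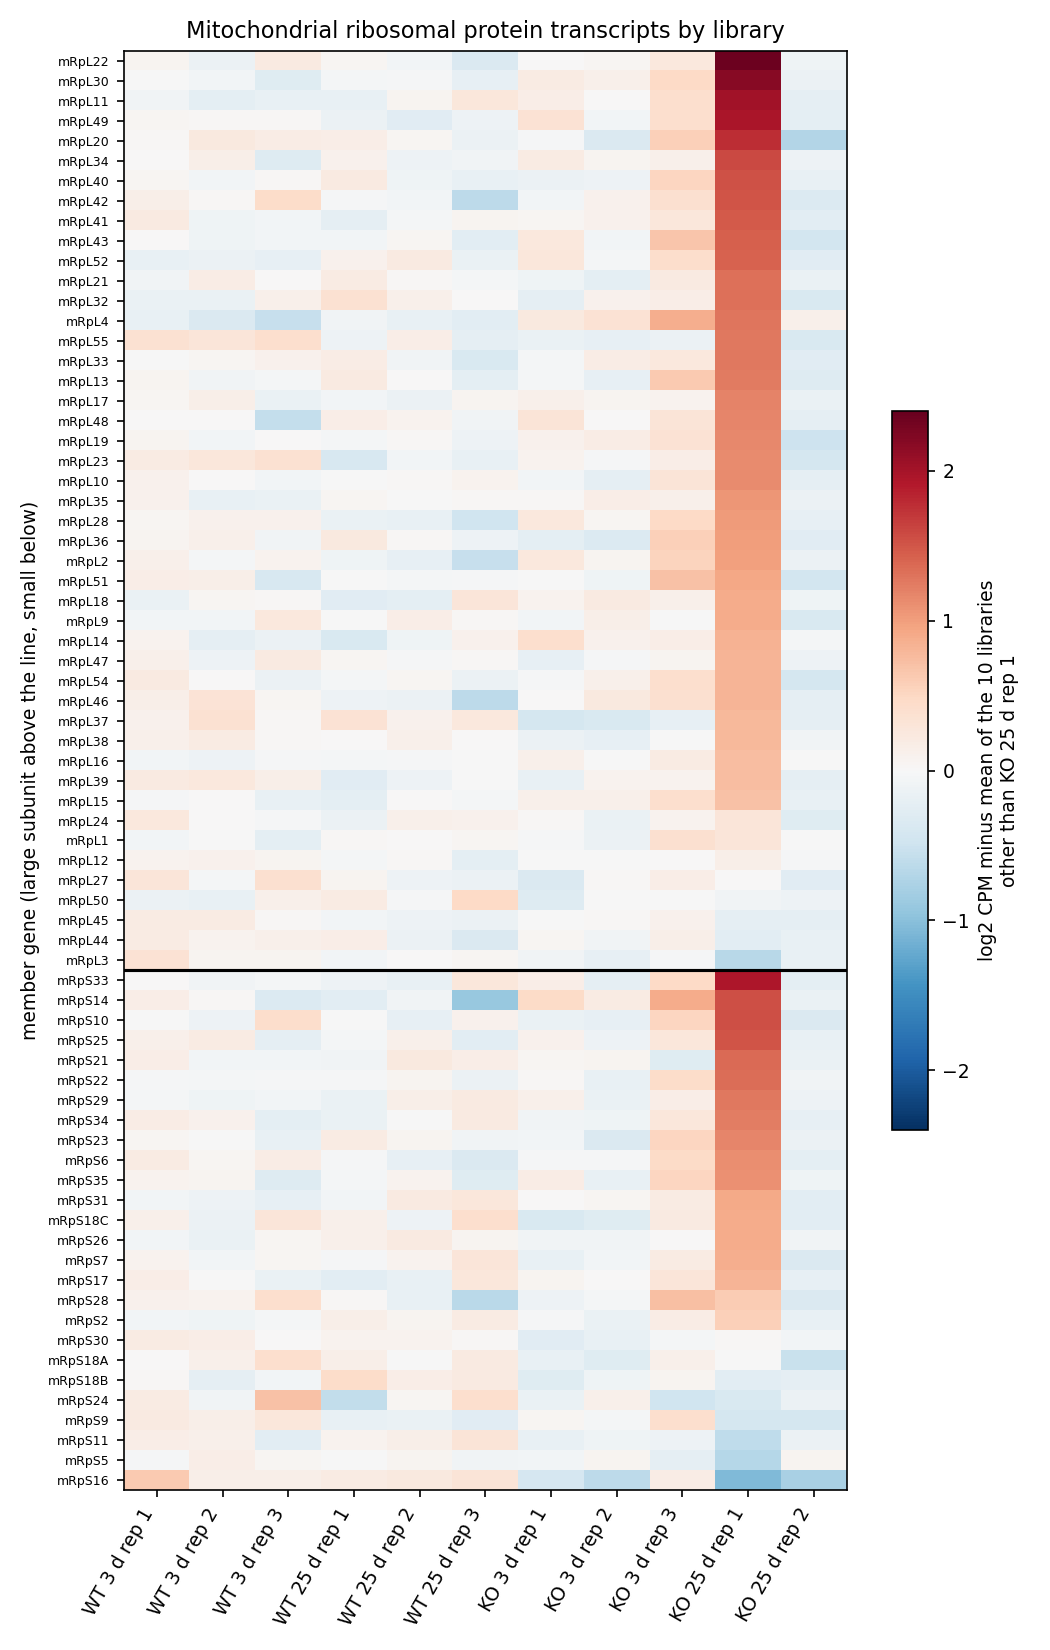
Each of the 72 tested members (rows, large subunit above the line) in each library (columns), as log2 CPM minus the mean of the 10 libraries other than KO 25 d replicate 1; red is higher and blue lower. The column of KO 25 d replicate 1 is red for most rows (57 members above all other libraries) and blue for 11 members, with mRpS16 lowest at -1.05.

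Age in wild type was compared first, to ask whether the antennal supply of these transcripts differs between young and older flies. None of the 72 genes passed the test (edgeR quasi-likelihood, Benjamini-Hochberg adjusted over all 11867 genes, threshold 0.05), against 18 (0.152%) of all genes. At an unadjusted p under 0.05 there was 1 member, against 8.07% of all genes. DESeq2 (2.54% of all genes called) and limma voom also called 0 members. The log2 fold change was above 0 for 28 of 72 members, against 48.6% of all genes. The median log2 fold change from 3 d to 25 d was -0.03 over the members and -0.01 over all genes. The 95% interval of the log2 fold change lay within -1 to 1 for 59 of the 72 genes, so a change of 2-fold or more lay outside the interval for those. The CPM of the 2 ages did not overlap, with 25 d higher, for 5 members (13.1% of all genes), and with 25 d lower for 14 (13% of all genes). Summed muscle markers (13 of 13 detected, none at 0) were at 1485 to 2825 CPM in the WT 3 d libraries and 491 to 761 CPM in WT 25 d, and their part in these values was not tested.

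The member with the lowest p for age in WT was mRpS9 (3R, 7889277 to 7902667), a small subunit protein that in bacteria reaches the transfer RNA in the P site. Its CPM were 54.3, 51.2 and 56.2 in WT 3 d and 41.5, 41.8 and 38.5 in WT 25 d. In KO they were 48.4, 45.1 and 61.8 at 3 d and 34.6 and 34.7 at 25 d. Every 25 d library of either genotype lay under every 3 d library. The log2 fold changes with age were -0.41 in WT (SE 0.14, adjusted p = 0.379) and -0.58 in KO (SE 0.16, adjusted p = 0.282), and neither passed. Averaged over the genotypes, a comparison added after the values were seen, the change was -0.49 (SE 0.11, adjusted p = 0.0747), against 0.43% of all genes that passed there. Leaving out KO 25 d replicate 1 gave -0.48 (adjusted p = 0.0832). CG10092, which encodes the mitochondrial arginyl-tRNA synthetase, overlaps 25.1% of the mRpS9 exons on the other strand, at 4.43 CPM per kb against 34.99 for mRpS9.

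Other members of lowest p for age in WT had smaller differences. mRpL45, whose human counterpart binds the inner membrane near the exit of the peptide tunnel, averaged 39.7 ± 2.77 CPM in young WT and 33.4 ± 0.890 CPM in WT of 25 d (SD, n = 3 each; log2 -0.25, SE 0.12, adjusted p = 0.632). mRpS18B was at 10.7 ± 0.856 and 13.6 ± 1.41 CPM (0.36, SE 0.17, adjusted p = 0.659). mRpL50 was at 9.20 ± 1.09 and 11.2 ± 1.95 CPM (0.28, SE 0.20, adjusted p = 0.817), and its groups overlapped. Without WT 25 d replicate 3 its change was 0.14.

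Age in KO rests on the 2 unlike KO 25 d libraries. No member passed, against 5 (0.0421%) of all genes, and 13 had an unadjusted p under 0.05, against 11.8% of all genes. The median log2 fold change was 0.42 over the members, with 59 of 72 above 0 (46% of all genes), and -0.04 over all genes. DESeq2 called 1 member, mRpS9 (adjusted p = 0.0414), against 2.49% of all genes, and limma voom 0. Without KO 25 d replicate 1 the median was -0.27, with 6 of 72 above 0 (46.2% of all genes), and -0.03 over all genes. Again 0 members passed (0.0159% of all genes), and 9 had an unadjusted p under 0.05 (7.74% of all genes). The direction of the set therefore turned with 1 library. Fat body and female markers were at 2067 to 8511 CPM in KO 3 d and 1438 and 815 in KO 25 d, and photoreceptor markers (6 of 6 detected) at 1498 to 5621 against 1132 and 731 CPM. Muscle markers were at 667 to 1646 CPM against 677 and 412. The part of these markers in the result was not tested. With both libraries, no member was higher at 25 d without overlap (8.03% of all genes), and 4 were lower without overlap (12% of all genes): mRpS16, mRpL44, mRpS9 and mRpL45.

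The members of lowest p among the higher ones followed replicate 1. mRpL22, a protein of the peptide tunnel wall in bacteria, was at 21.3, 22.1 and 25.4 CPM in KO 3 d and at 108 and 19.7 CPM in KO 25 d. Its log2 fold change with age in KO was 1.48 (SE 0.49, adjusted p = 0.347), and -0.21 (adjusted p = 0.831) without replicate 1. mRpL37, which has no bacterial counterpart, was at 13.1, 13.8 and 15.4 CPM in KO 3 d and at 30.4 and 15.2 CPM in KO 25 d (0.69, SE 0.25, adjusted p = 0.390). It was 0.12 without replicate 1 and 1.10 (adjusted p = 0.00142) without replicate 2, so the call depended on which KO 25 d library was kept. mRpS16, described below, was the other lower member, at -0.67 (SE 0.27, adjusted p = 0.396). It was at -0.52 (adjusted p = 0.741) without KO 25 d replicate 1 and at -0.40 without KO 3 d replicate 3.

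KO against WT at 3 d compares 3 with 3 libraries, none of them KO 25 d replicate 1. No member passed the test, against 165 (1.39%) of all genes, 77 higher and 88 lower in KO. An unadjusted p under 0.05 was reached by 3 members (mRpL4, mRpS30 and mRpS16), against 11% of all genes. DESeq2 (4.88% of all genes called) and limma voom called 0 members. The log2 fold change was above 0 for 43 of 72, against 49% of all genes. Its median was 0.04 over the members and -0.01 over all genes, and the 95% interval lay within -1 to 1 for 57 of 72. KO was higher without overlap for 11 members (13.9% of all genes) and lower without overlap for 8 (11.8% of all genes). At 3 d the olfactory markers summed to 46238 to 58373 CPM in KO and 26337 to 36849.8 CPM in WT (7 of 7 detected). Fat body and female markers (5 of 5 detected) ran from 2067 to 8511 CPM in KO and 16.1 to 5150.05 CPM in WT, and muscle markers from 667 to 1646 CPM in KO and 1485 to 2825 CPM in WT. Their part in the values was not tested.

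**Figure D4:**
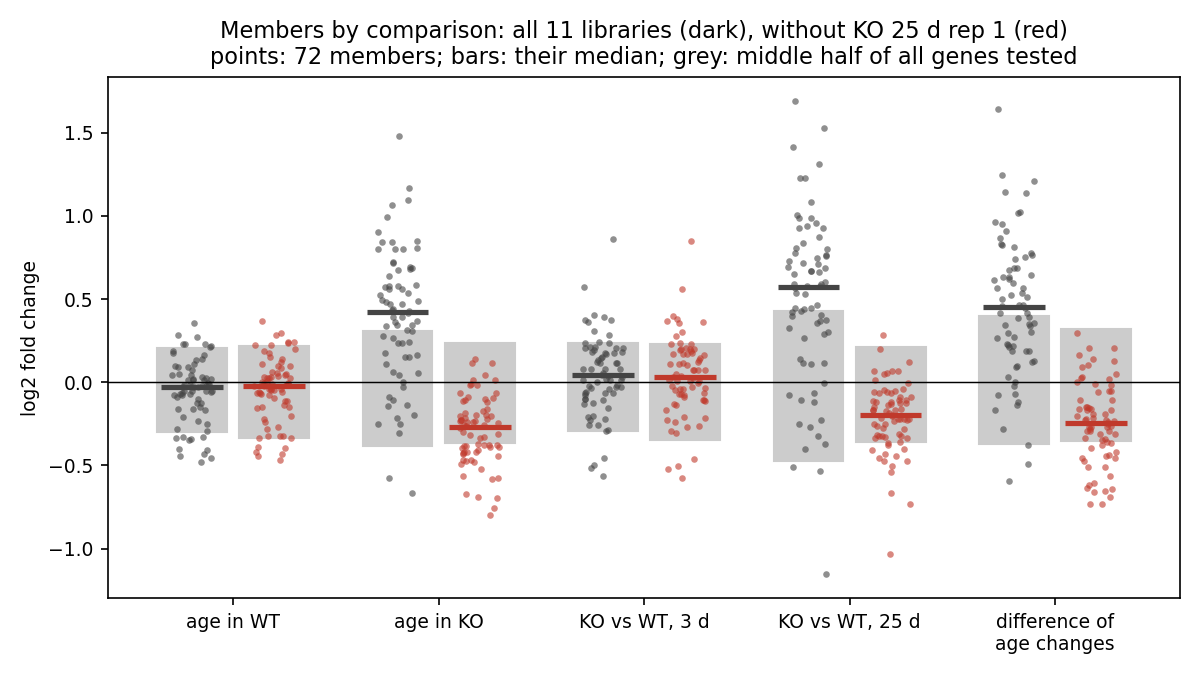
Log2 fold change of each of the 72 members (points) in the 5 comparisons, with all 11 libraries (dark) and without KO 25 d replicate 1 (red); bars are medians and grey boxes the interquartile range of all genes tested. The medians for age in WT (-0.03) and KO against WT at 3 d (0.04) stay near 0, while those of the comparisons with KO 25 d change sign, from 0.42 to -0.27 for age in KO and from 0.57 to -0.20 for KO against WT at 25 d.

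KO against WT at 25 d gave no call either, against 206 (1.74%) of all genes, but 24 members had an unadjusted p under 0.05, against 20.6% of all genes. Of those 24, 21 were higher in KO (12.8% of all genes) and 3 lower (7.84% of all genes). The members' median log2 fold change was 0.57, with 58 of 72 above 0 (47% of all genes), and -0.04 over all genes. Without KO 25 d replicate 1 the median was -0.20, with 9 of 72 above 0 (45.7% of all genes). Then 0 members passed (1.03% of all genes), and 10 had an unadjusted p under 0.05 (9.52% of all genes), all lower in KO. KO was higher without overlap for 2 members, mRpL4 and mRpL16 (14.6% of all genes), and lower without overlap for 7 (18.4% of all genes): mRpS18B, mRpS16, mRpL50, mRpS9, mRpS11, mRpL45 and mRpL3. By DESeq2 6 members were called, 5 higher (mRpL4, mRpL30, mRpL49, mRpL22 and mRpS14) and mRpS16 lower, against 9.52% of all genes, and by limma voom 0. Olfactory markers were at 27776 to 35575 CPM in WT 25 d and 183281 and 31656 in KO 25 d, and their part in the result was not tested.

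mRpL22 and mRpL30 had the lowest p among members that were high only in replicate 1. mRpL30 was at 36.3, 36.6 and 32.9 CPM in WT 25 d and at 169.9 and 33.9 CPM in KO 25 d, so replicate 2 lay within the WT range. Its log2 fold change was 1.53 (SE 0.46, adjusted p = 0.129), and -0.063 (adjusted p = 0.975) without replicate 1. For mRpL22 the WT 25 d values were 22.1, 20.4 and 16.7 CPM, and the fold change of 1.69 (SE 0.49, adjusted p = 0.116) became -0.0068 without replicate 1. Among the lower ones, mRpS11, a platform protein of the small subunit in bacteria, was at 25.2, 26.2 and 29.6 CPM in WT 25 d and 15.6 and 21.7 CPM in KO 25 d (-0.54, SE 0.19, adjusted p = 0.172). Its change was -0.32 (adjusted p = 0.694) without KO 25 d replicate 1 and -0.79 (adjusted p = 0.00902) without replicate 2.

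The difference of the age changes between the genotypes, the test of whether age acts differently in KO, called 0 members against 3 (0.0253%) of all genes. At an unadjusted p under 0.05 there were 2, mRpL55 and mRpL22, against 6.12% of all genes, and DESeq2 (0.365% of all genes called) and limma voom called 0. The median difference was 0.45 over the members and -0.03 over all genes, and -0.24 without KO 25 d replicate 1. mRpL55 is a large subunit protein that flies need to develop. It was at 15.03, 14.4 and 15.4 CPM in the WT 3 d libraries and 10.8, 13.1 and 10.1 in WT 25 d. In KO it was at 10.5, 10.3 and 10.6 CPM at 3 d and 28.4 and 9.13 at 25 d. The lowest WT 3 d value was above all 3 KO 3 d values, and the difference of age changes of 1.24 (SE 0.48, adjusted p = 0.790) became 0.21 without replicate 1. mRpL22 had a difference of 1.64 (SE 0.66, adjusted p = 0.790), and mRpS18B and mRpS16 had the lowest p among negative ones, at -0.49 and -0.59 (both adjusted p = 0.790). Without KO 25 d replicate 1 these were -0.47 and -0.46, and for mRpS16 the difference was -0.32 without KO 3 d replicate 3.

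By edgeR no member passed for the genotype at either age with all libraries. mRpL4 and mRpS16 are given next because they passed in the average over the ages described after them. mRpL4 (2L, 16328059 to 16329132), whose bacterial counterpart lines the peptide exit tunnel, had higher values in KO. It was at 27.96, 24.95 and 21.5 CPM in the WT 3 d libraries and 29.8, 28.1 and 26.4 in WT 25 d. In KO it was at 37.1, 40.3 and 57.6 CPM at 3 d and 77.1 and 34.3 at 25 d. All 5 KO libraries lay above all 6 WT libraries. The log2 fold change was 0.86 at 3 d (SE 0.27, adjusted p = 0.218) and 0.99 at 25 d (SE 0.30, adjusted p = 0.130). By DESeq2 with all libraries mRpL4 passed at 25 d (0.99, adjusted p = 0.0376, where 9.52% of all genes passed). Without KO 25 d replicate 1, whose spread enters the variance of every comparison, the 3 d value was 0.85 (SE 0.17) and passed (adjusted p = 0.0229, where 4.7% of all genes passed), and the 25 d value was 0.29 (SE 0.24, adjusted p = 0.832).

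mRpS16 (2R, 14172986 to 14173628), a small subunit protein whose human counterpart is needed for mitochondrial translation, had lower values in KO. It was at 17.1, 12.2 and 12.2 CPM in the WT 3 d libraries and 12.6, 12.99 and 13.8 in WT 25 d. In KO it was at 8.39, 7.14 and 12.5 CPM at 3 d and 5.34 and 6.46 at 25 d. At 25 d the genotypes did not overlap, and at 3 d KO replicate 3 lay within the WT range. The log2 fold change was -0.56 at 3 d (SE 0.24, adjusted p = 0.411) and -1.16 at 25 d (SE 0.28, adjusted p = 0.0698), or -1.03 (adjusted p = 0.275) without KO 25 d replicate 1. By DESeq2 with all libraries mRpS16 passed at 25 d (-1.16, adjusted p = 0.00286, where 9.52% of all genes passed). Both KO 25 d libraries were low for mRpS16, so this gene was not high in the library where most members were.

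Averaged over the ages, a comparison added after the values were seen, 2 members passed, against 631 (5.32%) of all genes. They were mRpL4 (0.92, SE 0.20, adjusted p = 0.0267) and mRpS16 (-0.86, SE 0.18, adjusted p = 0.0223). Both calls were fragile. For mRpL4 the call remained without KO 3 d replicate 1 (adjusted p = 0.0400) or KO 25 d replicate 2 (0.000317) and was lost without any other single library (0.0506 to 0.0801), with a change of 0.57 without KO 25 d replicate 1. For mRpS16 it was lost without WT 3 d replicate 1 (0.0654), KO 3 d replicate 1 or 2 (0.0601 and 0.0527) or any single WT 25 d library (0.0552 to 0.0637), and with the replicate number as a term (0.0517). mRpL37 passed in the average only without KO 25 d replicate 1 (-0.49, adjusted p = 0.0380, where 4.99% of all genes passed), since replicate 1 held 30.4 CPM and every other KO library 13.1 to 15.4, below the 18.1 to 22.8 CPM of WT. mRpL4 shares 7.21% of its exon length with CG4278 on the other strand and mRpS16 2.25% with CG8331.

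**Figure D5:**
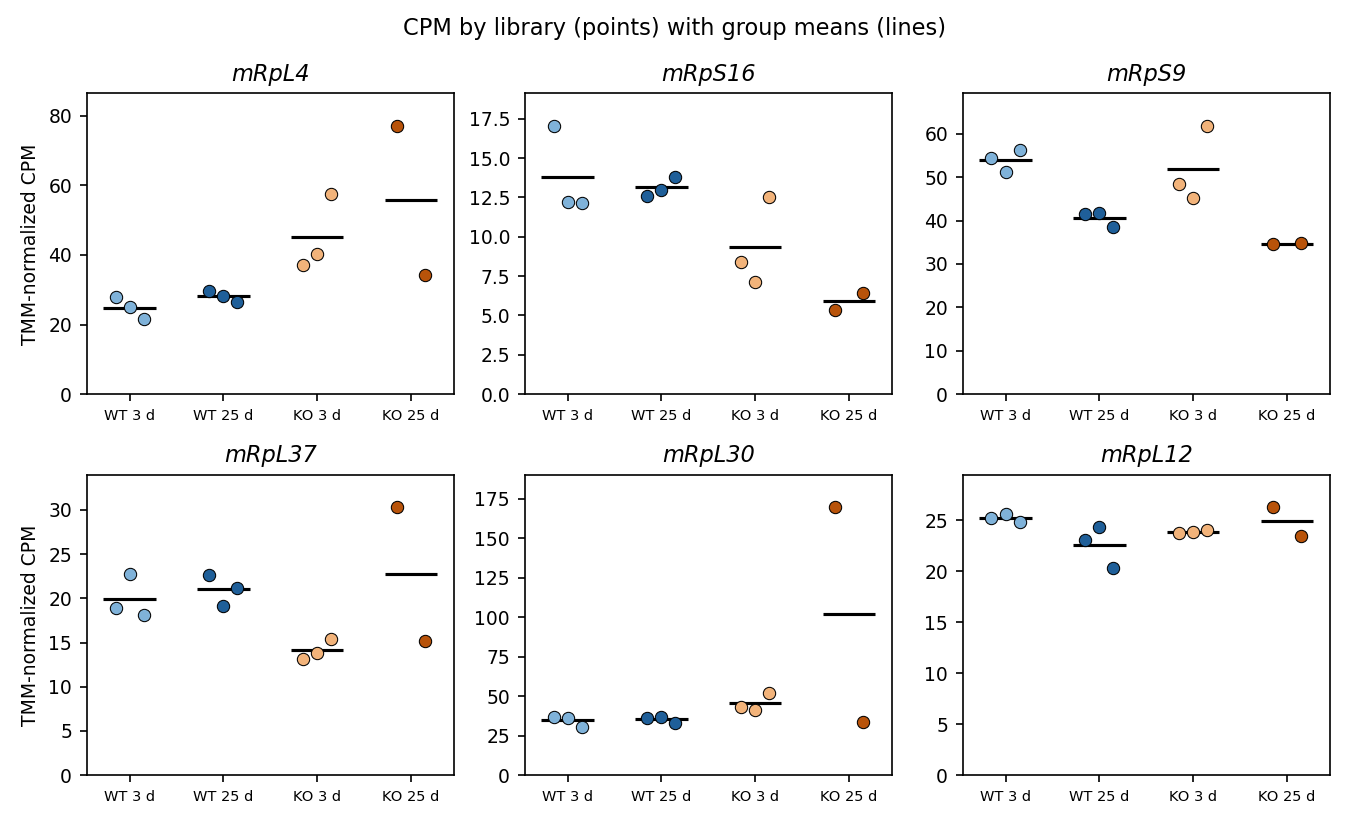
TMM-normalized CPM of 6 members in each library by group; points are libraries and lines group means, and each axis starts at 0. mRpL4 is above the WT range in all 5 KO libraries, mRpS9 is lower at 25 d in both genotypes, mRpL37 and mRpL30 are high in KO 25 d replicate 1, and mRpL12 stays between 20.3 and 26.3 CPM in all 11 libraries.

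At 3 d mRpS30 had the lowest p among members lower in KO, and mRpS14 came after mRpL4 among the higher ones without reaching an unadjusted p under 0.05. mRpS14 was at 28.9, 26.2 and 20.6 CPM in the WT 3 d libraries and 35.4, 29.4 and 47.8 CPM in KO 3 d (0.57, SE 0.39, adjusted p = 0.692, and 0.36 without KO 3 d replicate 3), with 35.8% of its exon length shared with other genes. mRpS30 was at 50.1, 48.5 and 44.3 CPM in the WT 3 d libraries and 36.01, 38.9 and 42.2 CPM in KO 3 d (-0.29, SE 0.12, adjusted p = 0.393). The groups did not overlap for either gene.

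The stalk of the large subunit, which recruits the translation factors that hydrolyse GTP, is built on mRpL10 and mRpL11 and carries copies of mRpL12. mRpL12 was the steadiest of the 3 across groups: 25.2 ± 0.386 CPM in WT 3 d, 22.6 ± 2.07 in WT 25 d, 23.8 ± 0.188 in KO 3 d (SD, n = 3 each) and 24.9 ± 2.01 in KO 25 d (n = 2). In KO 25 d replicate 1 it was at 26.3 CPM, while mRpL10 was at 46.6 CPM against 18.4 to 26.4 elsewhere and mRpL11 at 49.2 CPM against 10.3 to 16.04. Transcripts for 1 structure thus had unlike values in that library. mRpL44, whose human counterpart carries a fold of RNase III, was at 24.4 ± 0.975, 20.8 ± 3.68, 22.7 ± 1.81 and 19.1 ± 0.679 CPM in the same order of groups, and passed no test.

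In the small subunit, mRpS5, near the entry of the messenger RNA in bacteria, and mRpS7, near its exit, differed in KO 25 d replicate 1. mRpS5 was at 27.5 CPM there against 37.7 to 49.4 in the other 10 libraries, and mRpS7 at 65.7 against 28.1 to 43.9 CPM. The mitochondria-specific mRpS22 was at 104 CPM there against 36.1 to 56.1, and mRpS29, a GTP-binding protein also known in humans as DAP3, at 64.5 against 24.2 to 31.3 CPM. None of these passed in any of the 5 comparisons.

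A pair of small subunit proteins falls outside the naming rule. tko, the homologue of bacterial S12 and the site of a classic bang-sensitive mutation, had mean levels of 22.1 ± 2.62 (WT 3 d), 19.5 ± 3.15 (WT 25 d) and 22.6 ± 4.85 CPM (KO 3 d, SD, n = 3 each), and at 37.2 and 19.5 CPM in KO 25 d. bonsai, the homologue of bacterial S15, had 25.1 ± 0.687, 25.3 ± 0.956 and 31.95 ± 7.57 CPM in the same order, and at 65.4 and 24.9 CPM in KO 25 d. Both were highest in KO 25 d replicate 1, like most members, and neither passed (lowest adjusted p = 0.197, for bonsai at 25 d, with a change of 0.84 that became -0.029 without replicate 1).

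The partners of the mitochondrial ribosome gave no call in the 5 comparisons: 0 of 9 translation factors, 0 of 16 aminoacyl-tRNA synthetases, 0 of 7 transcription and RNA factors, 0 of 15 import proteins and 0 of 79 oxidative phosphorylation subunits, and 0 of 86 cytosolic ribosomal proteins. At an unadjusted p under 0.05, by edgeR, age in WT gave 13 of 79 oxidative phosphorylation subunits, all lower, against 5.18% of all genes lower. These subunits had a median of -0.36 for age in WT, against -0.03 for the mitochondrial ribosomal proteins and -0.01 over all genes. Without KO 25 d replicate 1, 5 of 82 of them passed for age in WT, all lower, and 0 of the 72 mitochondrial ribosomal proteins did (1.44% of all genes). The difference between these lists was not tested.

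In the averages added after the values were seen, 1 of 16 aminoacyl-tRNA synthetases and 1 of 15 import proteins passed for the genotype (5.32% of all genes), and 1 of 79 oxidative phosphorylation subunits for age (0.43% of all genes). The mitochondrial seryl-tRNA synthetase (Aats-ser in the file) was lower in KO (-0.57, SE 0.13, adjusted p = 0.0309), at 27.6, 27.9 and 26.7 CPM in WT 3 d against 18.99, 16.6 and 17.9 CPM in KO 3 d. Without KO 25 d replicate 1 its change was -0.70 in the average, -0.62 at 3 d and -0.78 at 25 d. Tom70, an import receptor of the outer membrane, was lower in KO (-0.51, SE 0.12, adjusted p = 0.0382), with means of 42.5 ± 5.98 and 42.2 ± 6.72 CPM in WT at 3 d and 25 d and 30.6 ± 2.80 CPM in KO 3 d (SD, n = 3 each). That call was lost without KO 25 d replicate 1 (-0.48, adjusted p = 0.0778). CG5548, the complex I subunit ND-B18, was lower with age (-0.64, SE 0.11, adjusted p = 0.0448), from 69.7 ± 9.52 to 42.0 ± 2.60 CPM in WT (SD, n = 3 each), and without KO 25 d replicate 1 this call was lost too (-0.61, adjusted p = 0.0514).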

How the data were processed

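The authors deposited 1 table of raw counts of reads per gene. Per the file headers it was made with featureCounts 1.4.5-p1 on exons of UCSC dm6 gene models with strand ignored (setting 0), and the command carries no option that assigns a read to more than 1 gene. Per the submitters' processing notes, STAR 2.4.2a, FastQC and dm6 were used. Libraries were made with a directional kit from DNase-treated, poly(A)-selected RNA, per the labels' protocols. Of 12 library columns, 1 (a further KO 25 d column) was not used. Exon lengths (bases) and coordinates come from the same table, as deposited. FlyBase identifiers were matched for 73 of 73 members, and the related lists were matched through current symbols and synonyms because the table uses older symbols.

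Low-count genes were removed by filterByExpr with the groups given, 11867 genes were kept, and libraries were scaled by TMM. The quasi-likelihood test of edgeR 4.0.16 (R 4.3.3) with robust dispersions was fitted to 4 group means over all 11 libraries, and p-values were adjusted by Benjamini-Hochberg over all genes tested. The common biological coefficient of variation was 0.431. Positive log2 fold changes mean higher at 25 d or in KO. Levels per length are TMM-scaled CPM divided by exon length. The limit for 0 counts is 3 counts per library. The script was tested on simulated counts. The members and lists were chosen with earlier results of these data known. Named members were those called, the 2 of lowest p in each direction of each comparison, the 3 highest and 3 lowest per length, the 1 that failed the filter, and 10 named for their roles; mRpL3, mRpL24, mRpS6, mRpL16, mRpL49, mRpL13, mRpS21 and mRpS18A, and the genes called in the averages, were added after their values were seen. Alternatives were other scalings, filters and tools (DESeq2 1.42.0, limma 3.58.1 voom), the replicate number as a term, a fit of the compared groups alone, removal of genes that overlap another gene on the other strand, and leaving out each library. Replicates of a group held no identical libraries, but they differed by uneven amounts. The chi-square per gene was 13.4 between WT 3 d replicates 1 and 2, and 315 and 302 between these and replicate 3. It was 36.9 to 195 within WT 25 d and KO 3 d, and 993 between the KO 25 d libraries. Genes encoded in the mitochondrial genome were not analysed here.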

Additional observations from a re-analysis of the deposited data

How the results depend on the processing

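Without either KO 25 d library, results with that group moved most. Leaving out 1 library at a time gave 0 to 55 members called for age in KO, 0 to 2 for the genotypes at 3 d, 0 to 57 for KO at 25 d, 0 to 40 for the difference of the age changes, 0 to 55 for the averaged KO effect and 0 to 42 for the averaged age effect, the highest each without KO 25 d replicate 2, whose lone partner is then assumed to vary like the other groups. Age in WT gave 0 throughout. The members' median ranged from -0.05 to 0.00 for age in WT, -0.27 to 0.92 for age in KO, -0.06 to 0.11 for KO at 3 d, -0.20 to 1.07 for KO at 25 d and -0.24 to 0.95 for the difference. The summed CPM ranged from 1527 to 1605 in WT 3 d, 1460.1 to 1544 in WT 25 d, 1512 to 1689 in KO 3 d and 1372 to 3009 in KO 25 d. Reversed without KO 25 d replicate 1 were mRpL22 for age in KO (-0.21, and 2.23 without replicate 2), KO at 25 d (-0.0068 and 2.45) and the difference (-0.054 and 2.395), and mRpL30 for KO at 25 d (-0.063 and 2.27). By DESeq2 the calls were 1 (mRpS9, age in KO) and 6 (KO at 25 d). Total counts alone, added after the data were seen, gave a median of 0.055 for age in WT and 0.076 for the difference and 1602 summed CPM in WT 25 d; it shifted the all-gene median by -0.13 for age in KO, -0.26 for KO at 25 d and -0.22 for the difference, and the members then lay 0.30, 0.46 and 0.33 above it. The averaged KO effect gave 2 calls, 1 with the replicate block and 0 with opposite-strand overlaps left out, which removes both genes. The replicate block changed no other count of members called. Same-numbered libraries correlated at -0.12 to 0.46, not all above 0.1, so the numbers were not taken to pair them. The highest values were both between WT 3 d and KO 3 d, at 0.41 for replicate 1 and 0.46 for replicate 3, with 0.03 for replicate 2. A replicate effect shared by the genotypes at 3 d alone was not tested. Counts over all genes ranged from 2 to 293 (18 in the main test) for age in WT, 0 to 4084 (5) for age in KO, 64 to 592 (165) for KO at 3 d, 20 to 5090 (206) for KO at 25 d and 0 to 2987 (3) for the difference. Of 457 values of named members under alternatives, 420 kept their direction and side of the threshold. The fit of only the groups compared gives no value for the difference, and DESeq2 and voom were not run for the averages. The cause of these shifts was not tested.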
